A study of Mus musculus with 18 samples.

Results

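The cytosolic ribosomal protein genes were taken as every gene whose symbol begins with Rpl or Rps and a number, with at most a closing a, x or l, together with Rplp0, Rplp1, Rplp2 and Rpsa. Of 35275 listed genes, 81 met this rule, 49 of the large subunit and 32 of the small subunit. The study compared C2C12 cells, a mouse myoblast line, with derived lines that overexpress the long noncoding RNA MUNC in a spliced or a genomic form. Control cells carried the genotype label wild-type. The cells are described as PAX7 NEG. Each of the 3 lines was sampled in growth medium (GM, 20% foetal bovine serum, near confluence) and after 3 days in differentiation medium (DM3, 2% horse serum), with 3 biological replicates in each of the 6 groups. Poly(A)-enriched RNA was sequenced. The promoter of the overexpression constructs, whether a line came from 1 clone and whether control cells carried an empty vector are not given in the sources used here.

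Ribosomal proteins assemble with ribosomal RNA into the large and small subunits of the cytosolic ribosome, each protein in about equal copy number. Their mRNAs carry a terminal oligopyrimidine tract at the 5′ end, through which mTOR signalling and Larp1 control their translation, and Myc is a known activator of their transcription. Myoblasts that leave the cell cycle and form myotubes reduce ribosome production, while skeletal muscle also uses the paralog Rpl3l in place of Rpl3.

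The start regions of 6 genes are printed to show what the promoters of members look like. Each gene is named below for a large fall in at least 1 comparison, and other members with falls of that size, such as Rps24 and Rpl23a, are not shown. Each run covers 50 bases before and 30 bases after the RefSeq transcript start (GRCm38.p6, gene strand, 5′ to 3′), which spans the proximal promoter and the first bases of the first exon. Capitals mark a match to CTTTCC on the gene strand, CCGGAA on either strand (TTCCGG where it lies on the other strand), or TATAAA on the gene strand. CTTTCC and TTCCGG can overlap. For Rps27l the first of its 2 RefSeq windows is shown.
Rps2, chr17:24720013-24720092, plus strand: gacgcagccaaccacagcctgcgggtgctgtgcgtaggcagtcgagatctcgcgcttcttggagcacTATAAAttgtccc
Rpsa, chr9:120127716-120127795, plus strand: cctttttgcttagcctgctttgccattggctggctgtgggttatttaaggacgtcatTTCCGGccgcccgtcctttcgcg
Rps27l, chr9:66946036-66946115, plus strand: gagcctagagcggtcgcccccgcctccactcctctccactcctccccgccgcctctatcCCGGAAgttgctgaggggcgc
Rpl26, chr11:68901516-68901595, plus strand: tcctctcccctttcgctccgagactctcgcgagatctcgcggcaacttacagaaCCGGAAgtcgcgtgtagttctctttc
Rps7, chr12:28635924-28636003, minus strand: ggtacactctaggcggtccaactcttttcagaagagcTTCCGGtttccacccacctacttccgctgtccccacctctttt
Rpl28, chr7:4792915-4792994, plus strand: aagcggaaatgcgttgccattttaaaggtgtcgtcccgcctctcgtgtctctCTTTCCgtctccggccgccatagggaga
The marked matches of Rps2, Rpsa, Rps27l, Rpl26 and Rpl28 lie after the RefSeq start, and that of Rps7 lies before it. In the GENCODE M21 annotation the Rps2 gene begins at 24718116, upstream of the run shown.

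Over the full RefSeq windows of 300 bases, 57 of the 77 members that could be tested had an entry. Some had more than 1 start, which gave 68 windows. CTTTCC was present in 27 of these 68 windows (39.7%), against 14.1% of all 32851 windows. CCGGAA was present on either strand in 33 (48.5%), against 14.9% of all windows. TATAAA was present in 5 (7.35%), against 8.32% of all windows. At least 1 of CTTTCC and CCGGAA was found in 48 of the 68 member windows (70.6%) and in 26.5% of all windows. These letter matches are a description of the windows. The members lie on 19 chromosomes, so the group is not a genomic cluster.

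The 18 libraries held 38416702 to 68788327 reads assigned to genes. Muscle markers differed between the groups, not all in the same direction. Myod1, the myogenic regulator, was at 0 to 0.0854 FPM (the library-size-normalised read level in the authors' table) in control GM and at 0 to 0.221 FPM in control DM3, while Myf5 and Cdh15 were present. Of 12 C2C12 and myotube markers, 11 were listed, and their summed level was 242 to 335 FPM in control GM, 460 to 648 in MUNC spliced GM, 473 to 834 in MUNC genomic GM, 456 to 634 in control DM3, 830 to 1785 in MUNC spliced DM3 and 1344 to 1521 in MUNC genomic DM3. Des led the sum in MUNC genomic GM, at 332.5 to 621.6 FPM against 16.0 to 32.7 FPM in control GM. Myf5 (24.3 to 30.1 FPM) and Cdh15 (18.1 to 29.3 FPM) were lower there than in control GM (66.0 to 81.5 and 44.3 to 48.7 FPM). Chrna1 and Myod1 were higher there than in control GM. The sum of 6 fibroblast markers, led by collagens that C2C12 cells also express, was 7063 to 11376 FPM in control GM, 13199 to 22404 in MUNC spliced GM, 6994 to 16148 in MUNC genomic GM, 10645 to 12112 in control DM3, 19896 to 21027 in MUNC spliced DM3 and 13653 to 15451 in MUNC genomic DM3, with Thy1 at or near 0. The 4 epithelial markers summed to 7.79 to 14.9 FPM in MUNC genomic GM and 9.26 to 14.3 in MUNC genomic DM3, almost all of it Krt8, and to at most 0.792 FPM in the other groups, with Epcam at or near 0. The 3 endothelial markers summed to 3.89 to 7.36 FPM in MUNC genomic cells, almost all of it Cdh5, and to at most 0.602 FPM elsewhere. Adipocyte markers summed to at most 12.7 FPM and leukocyte markers to at most 5.42 FPM, with Adipoq, Cidec and Itgam at or near 0. The part of these shifts in the ribosomal protein results was not tested.

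Of the 81 members, 77 reached 0.5 FPM in at least 3 libraries and were tested, 46 of the large and 31 of the small subunit. Over the 18 libraries their mean levels ran from 8.39 FPM for Rpl24 to 1439 FPM for Rpl4, with a median of 307 FPM. Per kilobase of transcript the median level was 393 FPM. The highest levels per kilobase were those of Rpl8 (1353 FPM), which helps form the peptidyl transferase centre, Rps15 (1159 FPM) and Rps12 (1109 FPM). Rpl24 (12.4 FPM per kilobase) and Rpl29 (45.7 FPM per kilobase) were the lowest of the tested members and were picked out after their values were seen.

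Low and high values both need care, because mouse ribosomal protein genes have many processed pseudogenes. In the GENCODE M21 transcripts, 81.7% of the 50-base windows of Rpl24 and 78.5% of those of Rpl29 also occurred in another gene, and 82 genes shared a window with Rpl29. For Rpl8, Rps15 and Rps12, the highest per kilobase, the shared part was 7.86%, 39.0% and 90.1%. Over the 77 members the shared part had a median of 55.4% and reached 98.6% for Rps27. How the counting treated reads that match several genes is not given in the sources used here, so levels of members with many shared windows are uncertain. Only 1 of the 77 members shared no window, so a split at 50% cannot show what shared reads did to the changes. The medians on each side are a description. In control DM3 against control GM the median change was -0.39 over the 31 members with at most 50% shared and -0.44 over the 46 others. In MUNC spliced DM3 against control DM3 it was -0.72 and -0.66. In GM against control GM it was -0.49 and -0.53 for MUNC spliced and -0.40 and -0.47 for MUNC genomic cells.

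The remaining 4 members were paralogs with next to no reads. Rpl3l, the muscle paralog of Rpl3, had 32 reads in all 18 libraries together, and no library held more than 12. Rpl10l and Rpl39l, the paralogs of Rpl10 and Rpl39 known from testis, had 4 and 3 reads. Rps4l, annotated as a transcribed processed pseudogene, had 1. Rpl3l did not stand above 0.0553 FPM in any library but MUNC spliced GM replicate 3, at 0.216 FPM, whereas Rpl3 averaged 615 FPM. The switch from Rpl3 to Rpl3l known from mature muscle was therefore not detectable at this depth in any of the 6 groups.

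The summed level of the 81 members was highest in control GM and lowest in both MUNC lines in DM3. It was 48086, 37551 and 43415 FPM in the 3 control GM libraries, 32091, 25453 and 35102 in MUNC spliced GM, and 29479, 28392 and 37206 in MUNC genomic GM. The DM3 libraries held 37154, 30769 and 29404 FPM in control cells, 22811, 20726 and 18032 in MUNC spliced cells, and 24258, 20205 and 19490 in MUNC genomic cells. Every library of either MUNC line lay below every control library in the same medium, and in each line every DM3 library lay below every GM library. The gap was narrow in control cells, where the highest DM3 library stood just under the lowest GM library. It was also narrow in GM, where the highest MUNC genomic library stood just under the lowest control library. MUNC spliced and MUNC genomic libraries overlapped in both media.

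Against control GM, mean 43017 ± 5279 FPM (SD, n = 3), the difference of the mean sum was -24.6% in control DM3 (32443 ± 4137), -28.2% in MUNC spliced GM (30882 ± 4937) and -26.3% in MUNC genomic GM (31693 ± 4806). Against control DM3 it was -36.7% in MUNC spliced DM3 (20523 ± 2396) and -34.3% in MUNC genomic DM3 (21318 ± 2571). As a share of each library's reads, the members took 3.65% to 4.69% in control GM, 2.69% to 3.70% in MUNC spliced GM, 2.91% to 3.73% in MUNC genomic GM, 2.94% to 3.69% in control DM3, 1.85% to 2.32% in MUNC spliced DM3 and 1.96% to 2.40% in MUNC genomic DM3. On that scale control DM3 and both MUNC lines in GM overlapped control GM, while the MUNC lines in DM3 remained below control DM3. In bulk RNA, fewer cells with a high level and less of this RNA per cell cannot be told apart.

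**Figure D1:**
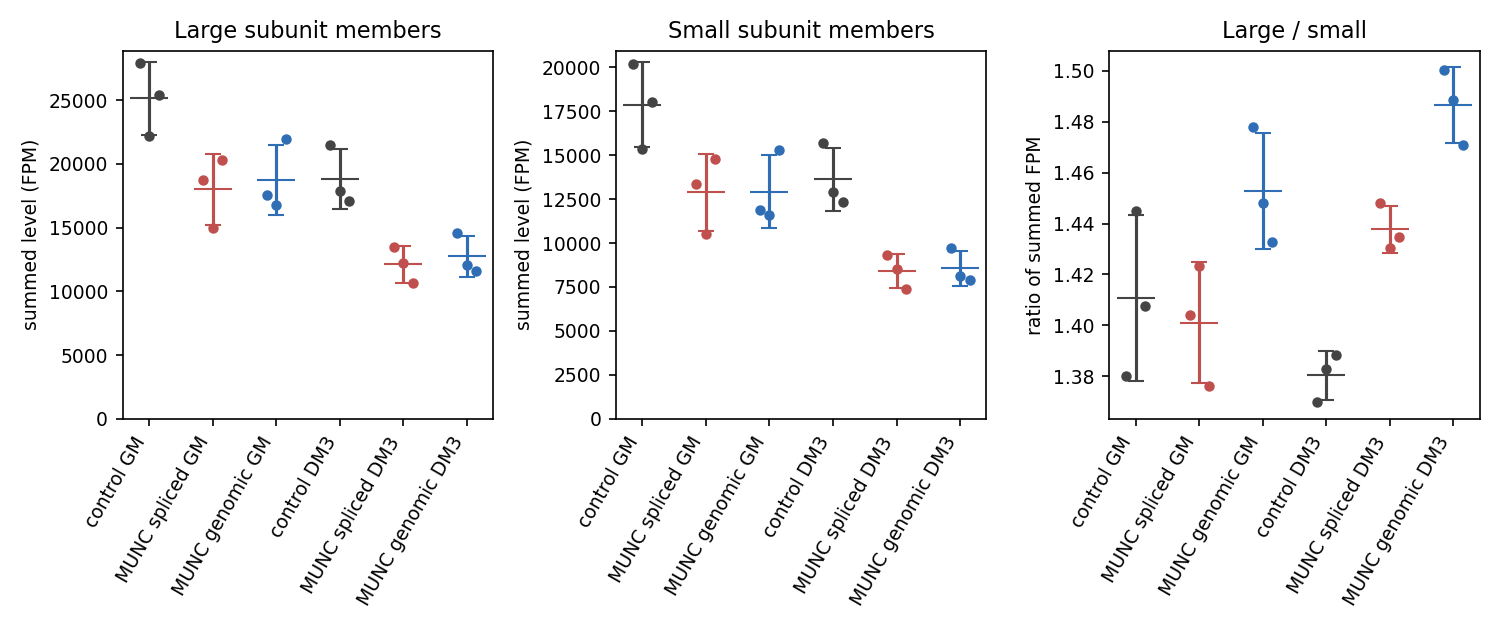
Summed level of the large subunit genes and of the small subunit genes (FPM), and the ratio of the 2 sums, in each of 18 libraries. Points are libraries, horizontal marks are group means and bars are SD with n = 3. Both sums are lowest in the MUNC lines in DM3, and the ratio spans only 1.37 to 1.50.

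The subunits moved nearly in step. The summed large subunit level divided by the summed small subunit level was 1.38 to 1.44 in control GM, 1.38 to 1.42 in MUNC spliced GM and 1.43 to 1.48 in MUNC genomic GM. After differentiation the ratio was 1.37 to 1.39 in control cells, 1.43 to 1.45 in MUNC spliced cells and 1.47 to 1.50 in MUNC genomic cells. The 3 groups in DM3 did not overlap, and the mean ratio was 4.15% higher in MUNC spliced and 7.68% higher in MUNC genomic cells than in control cells. These differences between the subunits were small beside those of the sums.

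**Figure D2:**
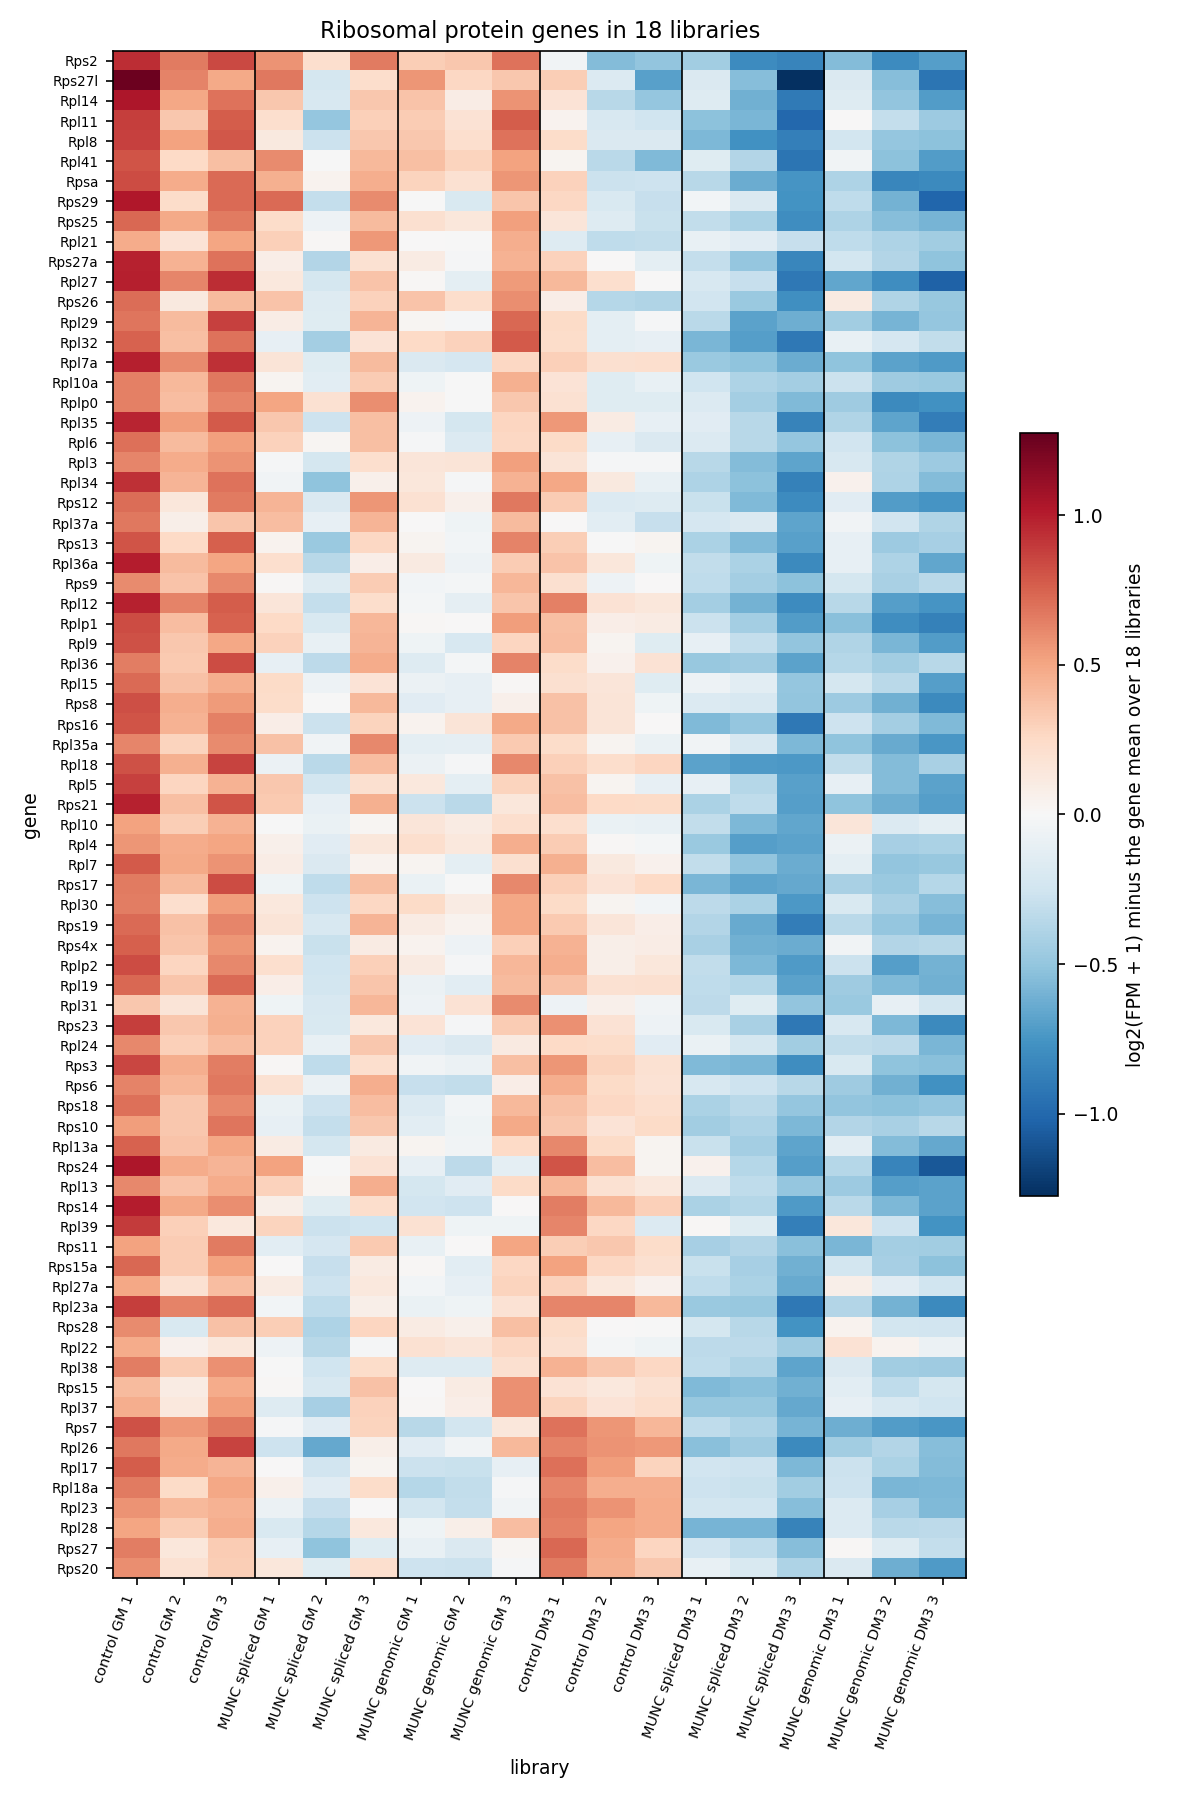
Level of 76 of the 77 tested genes in 18 libraries, as log2(FPM + 1) minus the gene's mean over all libraries, with genes ordered by the change in control DM3 against control GM. Nearly all genes are high (red) in control GM and low (blue) in the MUNC lines in DM3, and the bottom rows, from Rps7 to Rps20, stay high in control DM3.

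After 3 days in differentiation medium, control cells had 38 of the 77 tested members lower and none higher. Myog, Myh3, Ckm and Acta1 were low in these cells. Several muscle markers, Myog and Myh3 among them, were higher than in control GM, without overlap. Chrna1 was at 70.7 to 120.5 FPM in control DM3 against 13.0 to 16.8 FPM in control GM. Tnnt3 was at 1.69 to 8.40 against 0.138 to 0.495 FPM, and Des at 64.2 to 92.0 against 16.0 to 32.7 FPM. Cdh15 and Vcam1 were also higher in control DM3. Myog was at 0.192 to 0.434 FPM in control DM3 against 0 to 0.0683 FPM in control GM. Myh3 was at 0.375 to 0.497 against 0.2151 to 0.3585 FPM. Ckm, at 0.0384 to 0.0553 against 0 to 0.0461 FPM, overlapped. Acta1 was lower, at 3.43 to 5.68 FPM against 11.2 to 31.0 FPM in control GM. The labels of the control DM3 samples name both myoblasts and myotubes, and differentiation here means the change of medium. The call was limma with Benjamini-Hochberg adjusted p under 0.05 over all 13869 genes tested. Of the large subunit 26 of 46 fell, and of the small subunit 12 of 31. The median change was -0.42 on the log2(FPM + 1) scale, against 0.02 over all genes, and single members ran from -1.18 to 0.12. Over all genes, 28.6% were called lower and 29.6% higher. In the fit of all 18 libraries the share of members called lower exceeded that background, and none was called higher. At an unadjusted p under 0.05 no member was higher either, and edgeR and DESeq2 called none higher and 42 and 37 lower. The count was 18 without control GM replicate 1, 24 without control GM replicate 3, 21 without control DM3 replicate 2 and 18 without control DM3 replicate 3. The share of all genes called without these libraries is not given here, so whether the excess over the background remained is not shown.

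Rps2, a small subunit protein at the mRNA entry channel, fell most. It stood at 1204, 988 and 1124 FPM in control GM and at 606, 426 and 441 FPM in control DM3, with no overlap. The log2 change was -1.18 ± 0.17 (SE; limma, adjusted p = 1.82e-05). Rps2 shares 79.0% of its windows with other genes, so its level is uncertain. Rps27l, a paralog of Rps27 induced by p53, stood at 259, 168 and 152 FPM in GM and at 135, 95.8 and 66.9 FPM in DM3. Its groups did not overlap, and its change was -0.97 ± 0.31 (limma, adjusted p = 0.0121). That call was lost without control GM replicate 1 (adjusted p = 0.0694) or control DM3 replicate 3 (adjusted p = 0.0739). Rpsa, the laminin receptor protein of the small subunit, was at 1274, 993 and 1181 FPM in GM and 877, 591 and 597 FPM in DM3. Its change was -0.76 (limma, adjusted p = 0.00217).

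Not every member followed. Rps20 was at 792, 601 and 654 FPM in control GM and at 833, 722 and 670 FPM in control DM3, and Rps27 at 454, 319 and 362 FPM and 480, 402 and 351 FPM. Both genes overlapped between media, with changes of 0.12 and 0.12. Rpl28, a large subunit protein, was at 412, 361 and 399 FPM in GM and at 452, 412 and 404 FPM in DM3, a change of 0.11 ± 0.13 that did not pass the test.

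**Figure D3:**
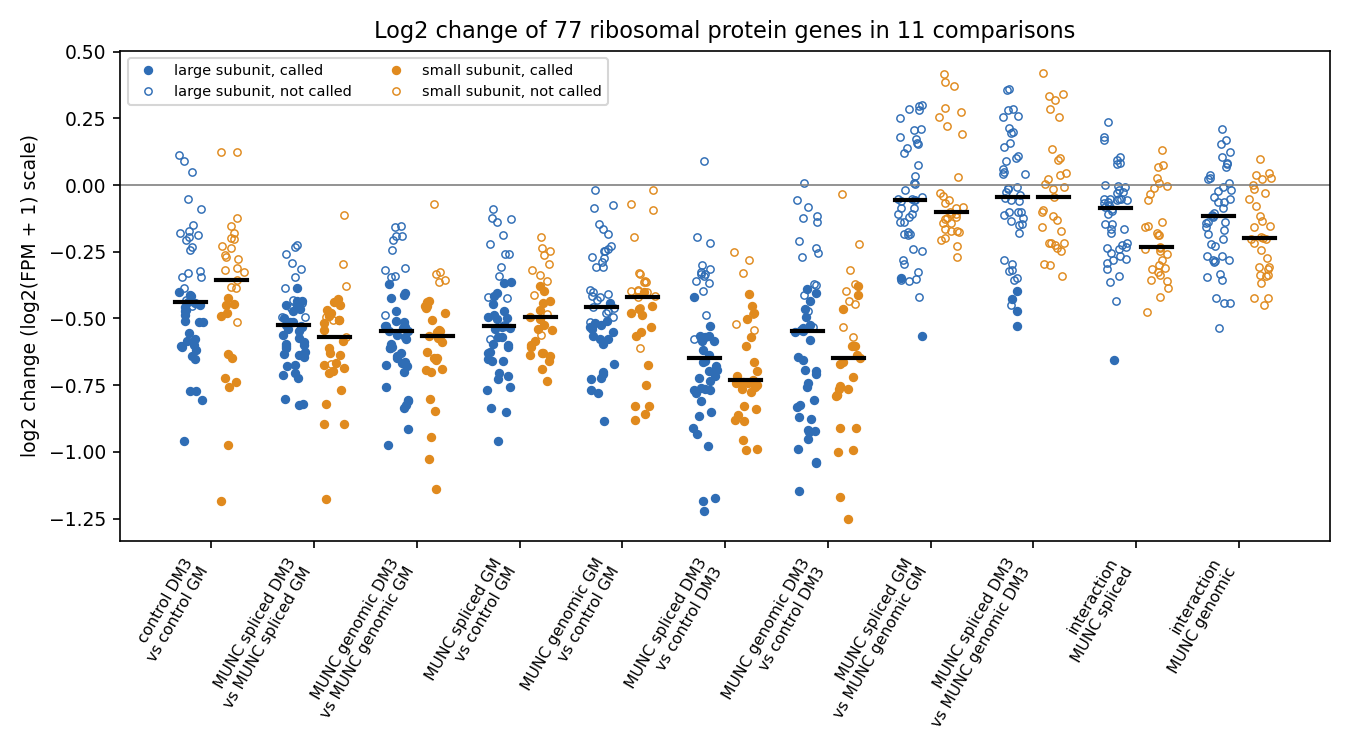
Log2 change of the 77 tested genes in 11 comparisons, on the log2(FPM + 1) scale. Each circle is a gene, filled where limma called it, blue for the large and orange for the small subunit, and black bars are medians. In the first 7 comparisons nearly all genes lie below 0 and no filled circle lies above it.

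Differentiation lowered most members in both MUNC lines. In MUNC spliced cells 58 of 77 fell (34 large, 24 small) and none rose, with a median of -0.53 and a range of -1.18 to -0.11, where 18.4% of all genes were called lower and 17.2% higher. In MUNC genomic cells 60 fell (35 large, 25 small) and none rose, with a median of -0.55 and a range of -1.14 to -0.07, where 25.1% of all genes were called lower and 26.3% higher. All 77 members were below 0 in both lines by limma. At an unadjusted p under 0.05 none was higher, and edgeR called 53 and 60 lower and DESeq2 57 and 59, with none higher. A larger count in a MUNC line than in control cells is not a test of the difference, which the interactions below give. The count for MUNC spliced cells was 30 without their GM replicate 1, 18 without their GM replicate 3 and 21 without their DM3 replicate 3. For MUNC genomic cells it was 32 without their GM replicate 3 and 38 without their DM3 replicate 3.

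The changes of the members went together in the 3 lines, which share no libraries in these comparisons. Same-numbered libraries of different groups tended to deviate together, as described below. Across the 77 genes Pearson's r of the log2 changes was 0.748 between control and MUNC spliced cells, 0.740 between control and MUNC genomic cells and 0.817 between the MUNC lines. Spearman's rho, on the order of the members, was 0.640, 0.672 and 0.776. Genes are not independent replicates, and these values are a description. Of the 38 members that fell in control cells, 33 (86.8%) also fell in MUNC spliced cells, which is 56.9% of the 58 there. In MUNC genomic cells it was 35 (92.1%), which is 58.3% of the 60 there. In all, 31 members fell in all 3 lines, 25 in 2, 13 in 1 and 8 in none. The 8 were Rpl17, Rpl22, Rpl23, Rpl39, Rps20, Rps24, Rps27 and Rps28, named after their values were seen.

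Rps2 again fell most in both lines. In MUNC spliced cells it stood at 932, 723 and 987 FPM in GM and 460, 359 and 348 FPM in DM3, a change of -1.18 ± 0.17 (limma, adjusted p = 8.24e-05). In MUNC genomic cells it stood at 779, 794 and 1010 FPM and at 427, 357 and 383 FPM, a change of -1.14 ± 0.17 (limma, adjusted p = 3.8e-05). The media did not overlap in either line, and the fall of Rps2 was nearly the same size in all 3 lines. Rpsa was at 976, 735 and 983 FPM in MUNC spliced GM and 558, 460 and 425 FPM in MUNC spliced DM3, a change of -0.90 (limma, adjusted p = 0.00142). In MUNC genomic cells it was at 867, 820 and 1055 FPM and 544, 400 and 405 FPM, a change of -1.03 (limma, adjusted p = 0.000228). Rpsa did not overlap between media in either line.

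**Figure D4:**
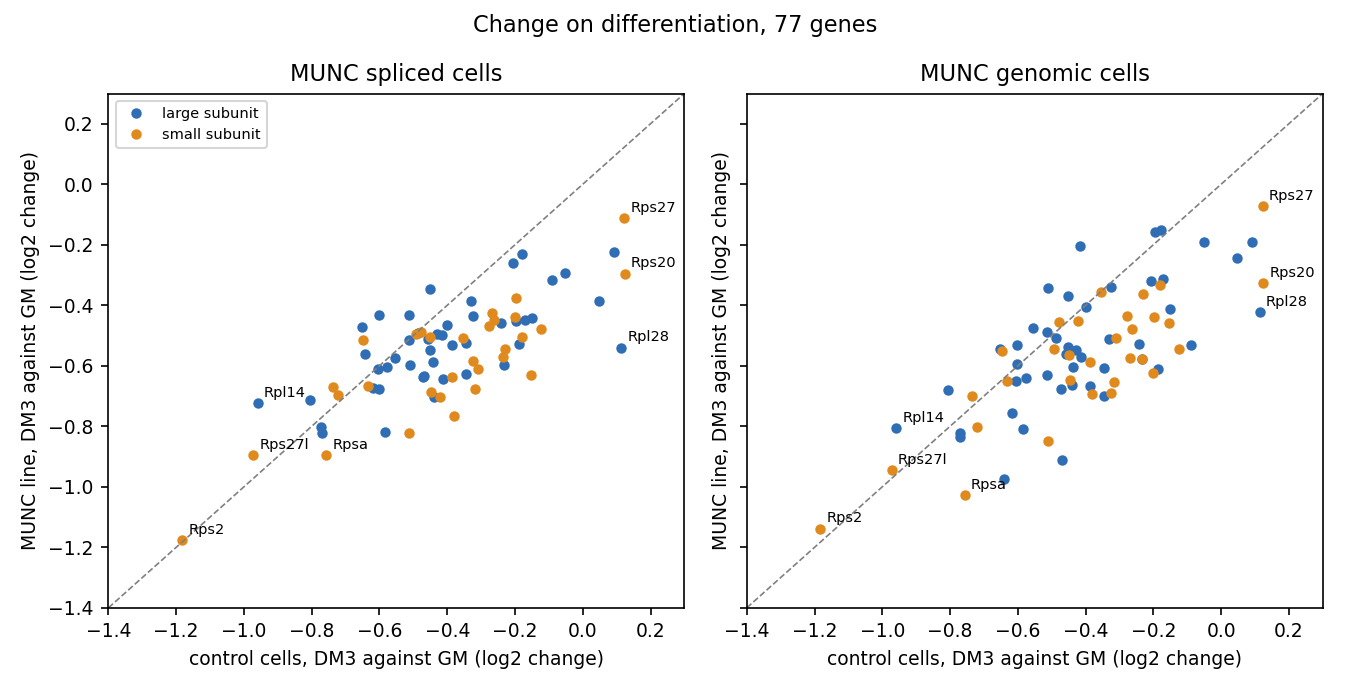
Log2 change on differentiation of the 77 tested genes in control cells (x axis) against MUNC spliced cells (left) and MUNC genomic cells (right), on the log2(FPM + 1) scale. Blue points are large and orange points small subunit genes, and the dashed line marks equal change. Rps2 lies near -1.2 on both axes, and Rps20, Rps27 and Rpl28 lie to the right of 0.

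In growth medium, MUNC spliced cells had lower levels of most members than control cells. Of 77 members, 52 fell (32 large, 20 small) and none rose, with a median of -0.50, against -0.02 over all genes, and a range of -0.96 to -0.09. Over all genes 17.3% were called lower and 18.2% higher. At an unadjusted p under 0.05 none was higher by limma, and edgeR and DESeq2 each called 54 lower and none higher. The count depended on the scaling and on single libraries. It was 31 with library sums made equal and 21 after quantile normalization. It was 29 without control GM replicate 1, 29 without control GM replicate 3 and 20 without MUNC spliced GM replicate 2.

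Rpl26, a large subunit protein that also binds p53 mRNA, fell most in that comparison. It was at 122, 107 and 139 FPM in control GM and at 62.9, 47.8 and 80.0 FPM in MUNC spliced GM, without overlap. Its change was -0.96 ± 0.17 (limma, adjusted p = 0.000418). Rpl34 came next, with a change of -0.85 ± 0.20 (limma, adjusted p = 0.00422).

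MUNC genomic cells in growth medium had 33 members lower (19 large, 14 small) and none higher than control cells. The median was -0.45 and the range -0.88 to -0.02, and over all genes 14.5% were called lower and 12.2% higher. None was higher at an unadjusted p under 0.05, and edgeR and DESeq2 each called 31 lower and none higher. The count was 15 without control GM replicate 1, 21 without control GM replicate 3, 15 without MUNC genomic GM replicate 1, 14 without MUNC genomic GM replicate 2 and 50 without MUNC genomic GM replicate 3. That last library had the highest summed level in its group.

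Rpl7a, a large subunit protein that binds ribosomal RNA, fell most there. It was at 1191, 908 and 1148 FPM in control GM and at 529, 516 and 720 FPM in MUNC genomic GM, without overlap. Its change was -0.88 ± 0.15 (limma, adjusted p = 0.000402). In MUNC spliced GM it was at 672, 540 and 792 FPM, a change of -0.70 (limma, adjusted p = 0.00208). Rps21, of the small subunit, had a change of -0.88 ± 0.17 in MUNC genomic GM (limma, adjusted p = 0.00112).

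Most members were also lower in the MUNC lines than in control cells in differentiation medium. In MUNC spliced DM3 57 of 77 members were lower than in control DM3 (32 large, 25 small) and none higher, with a median of -0.68, against 0.01 over all genes, and a range of -1.22 to 0.09. Over all genes 21.0% were called lower and 22.3% higher. In MUNC genomic DM3 53 members were lower (31 large, 22 small) and none higher, with a median of -0.60 and a range of -1.25 to 0.01, where 20.9% of all genes were called lower and 19.3% higher. At an unadjusted p under 0.05 none was higher by limma, and edgeR called 55 and 48 lower and DESeq2 57 and 52, with none higher. Leaving out any single library kept the counts between 43 and 60 and between 38 and 56. MUNC spliced and MUNC genomic cells share their control libraries in these comparisons.

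Rpl28 had the largest fall in MUNC spliced DM3. It was at 452, 412 and 404 FPM in control DM3, at 191, 192 and 160 FPM in MUNC spliced DM3 and at 256, 228 and 230 FPM in MUNC genomic DM3. The 3 groups did not overlap. The change against control DM3 was -1.22 ± 0.13 in MUNC spliced cells (limma, adjusted p = 2.31e-06) and -0.83 ± 0.13 in MUNC genomic cells (limma, adjusted p = 0.000121).

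Rps7, a small subunit protein that can bind Mdm2, had the largest fall in MUNC genomic DM3. It was at 398, 364 and 331 FPM in control DM3, at 159, 150 and 147 FPM in MUNC genomic DM3 and at 196, 188 and 163 FPM in MUNC spliced DM3. The change was -1.25 ± 0.14 in MUNC genomic cells (limma, adjusted p = 1.55e-06) and -0.99 ± 0.14 in MUNC spliced cells (limma, adjusted p = 2.29e-05). Every library of either MUNC line was below every control library.

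Rpl26 was at 118, 114 and 112 FPM in control DM3, at 52.1, 55.4 and 42.9 FPM in MUNC spliced DM3 and at 55.5, 58.6 and 51.9 FPM in MUNC genomic DM3. Its change was -1.18 ± 0.17 in MUNC spliced cells (limma, adjusted p = 3.85e-05) and -1.04 ± 0.17 in MUNC genomic cells (limma, adjusted p = 0.000132). Rps24, a small subunit protein mutated in Diamond-Blackfan anaemia, was at 740, 558 and 435 FPM in control DM3 and at 330, 237 and 201 FPM in MUNC genomic DM3, without overlap, a change of -1.17 ± 0.24 (limma, adjusted p = 0.000871).

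The pattern of members was alike in both media for each MUNC line. The GM and DM3 comparisons of a line share no library, though same-numbered libraries tended to deviate together. Of the 52 members lower in MUNC spliced GM, 50 were also lower in MUNC spliced DM3, which is 96.2% of the first and 87.7% of the second list, with Pearson's r of 0.723 across the 77 genes. For MUNC genomic cells 31 were lower in both, which is 93.9% of the GM list and 58.5% of the DM3 list, with r of 0.810. Rpsa, which fell strongly on differentiation, was also below control cells in both MUNC lines in DM3, without overlap. It was at 877, 591 and 597 FPM in control DM3. In MUNC spliced DM3 it was at 558, 460 and 425 FPM, and in MUNC genomic DM3 at 544, 400 and 405 FPM. Rps2, which fell strongly on differentiation too, differed less between lines. Rps2 changed by -0.33 in MUNC spliced DM3 and by -0.32 in MUNC genomic DM3 against control DM3, which did not pass the test (limma, adjusted p = 0.121 and 0.138).

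Few members separated the MUNC lines from each other. In GM the spliced line had 2 members lower than the genomic line and none higher, with a median of -0.08, where 16.0% of all genes were called lower and 19.9% higher. In DM3 4 were lower and none higher, with a median of -0.04, where 20.8% were called lower and 23.4% higher. At an unadjusted p under 0.05 limma had 2 members higher in each medium, and edgeR and DESeq2 called none higher. In GM, 6 were lower without MUNC spliced GM replicate 3, 1 without MUNC genomic GM replicate 1 and 1 without MUNC genomic GM replicate 2. The direction turned without MUNC genomic GM replicate 3, with 4 higher and none lower, and without MUNC spliced GM replicate 2, with 3 higher and none lower. It also turned after quantile normalization, with 5 higher and 1 lower. In DM3, 1 was higher and 6 lower without MUNC genomic GM replicate 3, and 3 higher and 5 lower after quantile normalization. The split there was 3 higher and 2 lower without MUNC spliced DM3 replicate 3 and 2 higher and 2 lower without MUNC genomic DM3 replicate 1. With the replicate number as a block, the counts were 2 higher and 2 lower in GM, and 3 higher and 8 lower in DM3.

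The 2 members lower in GM were Rpl32 and Rpl22, both of the large subunit. Rpl32 was at 316, 250 and 383 FPM in MUNC spliced GM and at 404, 417 and 583 FPM in MUNC genomic GM, without overlap, a change of -0.56 ± 0.17 (limma, adjusted p = 0.0168). It lost the call without MUNC spliced GM replicate 2 (adjusted p = 0.0964) or MUNC genomic GM replicate 3 (adjusted p = 0.0934). Rpl22, with a change of -0.35 (limma, adjusted p = 0.0345), lost it with equal library sums (adjusted p = 0.0608), quantile normalization (adjusted p = 0.0939) and no filter on low values (adjusted p = 0.0544). It also lost it without MUNC spliced GM replicate 2 (adjusted p = 0.17) or MUNC genomic GM replicate 1 (adjusted p = 0.0724), 2 (adjusted p = 0.053) or 3 (adjusted p = 0.0951). In DM3 the 4 were Rpl32, Rpl22, Rpl28 and Rpl10. Without MUNC spliced DM3 replicate 3 or MUNC genomic DM3 replicate 1 the calls were lost for Rpl32 (adjusted p = 0.0802 and 0.071) and Rpl28 (adjusted p = 0.104 and 0.0884). Rpl10, which joins the large subunit late in its assembly, was at 467, 390 and 366 FPM in MUNC spliced DM3 and at 648, 516 and 531 FPM in MUNC genomic DM3, without overlap, a change of -0.47 ± 0.12 (limma, adjusted p = 0.00496). Rpl22 in MUNC genomic DM3 overlapped the control cells and lay above MUNC spliced DM3. It was at 374, 339 and 312 FPM in MUNC genomic DM3 and 378, 324 and 318 FPM in control DM3, against 261, 260 and 240 FPM in MUNC spliced DM3.

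The interactions ask whether differentiation changed a member more in a MUNC line than in control cells. For MUNC spliced cells 1 member, Rpl28, was called (lower) and none higher, with a median of -0.15, where 6.94% of all genes were called lower and 7.43% higher. For MUNC genomic cells limma called none in either direction, with a median of -0.14, where 5.25% of all genes were called lower and 3.56% higher. At an unadjusted p under 0.05 there were 3 members lower and none higher for MUNC spliced, and 2 lower and none higher for MUNC genomic. DESeq2 called 1 and 0 members, and edgeR 0 and 0. The difference between a MUNC line and control cells in the change on differentiation did not pass the test for 76 of 77 members in MUNC spliced and for all 77 in MUNC genomic cells.

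For Rpl28 the interaction with MUNC spliced was -0.65 ± 0.19 (limma, adjusted p = 0.0316). It was at 253, 225 and 318 FPM in MUNC spliced GM and fell to 191, 192 and 160 FPM in DM3, a change of -0.54 (limma, adjusted p = 0.00543), while the control groups overlapped. The call was lost without any of 7 single libraries, with an adjusted p of 0.0569 without control GM replicate 2, 0.0512 without control GM replicate 3, 0.0643 without MUNC spliced GM replicate 3, 0.0532 without control DM3 replicate 1, 0.0595 without control DM3 replicate 2, 0.0563 without control DM3 replicate 3 and 0.0634 without MUNC spliced DM3 replicate 3.

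Members with particular roles were followed in every comparison. Rplp0, the core of the ribosomal stalk, was at 1994, 1677 and 1967 FPM in control GM and at 1469, 1153 and 1153 FPM in control DM3, a change of -0.58 (limma, adjusted p = 0.00546). It was lower in MUNC genomic DM3, at 935, 728 and 748 FPM, a change of -0.65 against control DM3 (limma, adjusted p = 0.00435). In MUNC spliced GM, at 1812, 1462 and 1925 FPM, it overlapped control GM and its change of -0.12 did not pass the test. Its stalk partner Rplp1 changed by -0.92 in MUNC genomic DM3 against control DM3 (limma, adjusted p = 0.000787), and Rplp2 by -0.76 (limma, adjusted p = 0.00344). Both were below control in MUNC spliced DM3 too, without overlap. Rplp1 was at 325, 290 and 239 FPM there against 513, 415 and 422 FPM in control DM3. Rplp2 was at 259, 215 and 194 FPM against 444, 339 and 355 FPM.

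Rpl5 and Rpl11 join the ribosomal RNA in the small particle that, when ribosome assembly stalls, binds Mdm2. Rpl11 was at 339, 233 and 315 FPM in control GM and at 190, 159 and 153 FPM in control DM3, without overlap, a change of -0.81 ± 0.21 (limma, adjusted p = 0.00434). Rpl5 was at 445, 295 and 331 FPM and at 315, 249 and 226 FPM. These groups overlapped, and the change of -0.43 did not pass the test (limma, adjusted p = 0.084).

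Rps6, the small subunit protein phosphorylated by S6 kinase, was at 419, 363 and 431 FPM in control GM and at 374, 320 and 307 FPM in control DM3, which overlapped. It was at 220, 217 and 287 FPM in MUNC genomic GM, a change of -0.75 ± 0.14 against control GM (limma, adjusted p = 0.000886), and at 197, 177 and 158 FPM in MUNC genomic DM3, a change of -0.91 ± 0.14 against control DM3 (limma, adjusted p = 8.24e-05). The MUNC genomic libraries were below every control library in each medium. In MUNC spliced DM3, Rps6 was at 235, 226 and 211 FPM, also below every control DM3 library. In MUNC spliced GM, at 309, 258 and 374 FPM, it overlapped control GM.

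Rps27 and Rps27l are paralogs. Rps27 changed by 0.12, -0.11 and -0.07 on differentiation in control, MUNC spliced and MUNC genomic cells, while Rps27l changed by -0.97, -0.90 and -0.95. In DM3 against control cells, Rps27 fell in MUNC spliced cells (-0.86; limma, adjusted p = 0.000252) and in MUNC genomic cells (-0.65; limma, adjusted p = 0.00272), and the changes of Rps27l, -0.48 and -0.37, did not pass the test. The call of Rps27l in MUNC spliced cells was lost with no filter on low values (adjusted p = 0.0711), without MUNC spliced GM replicate 1 (-0.67, adjusted p = 0.141) or 3 (adjusted p = 0.0774), and without MUNC spliced DM3 replicate 2 (adjusted p = 0.0557) or 3 (-0.59, adjusted p = 0.172). In MUNC genomic cells it was lost without their GM replicate 1 (adjusted p = 0.0569) or DM3 replicate 3 (adjusted p = 0.0804). The contrast between the paralogs was not itself tested, and 98.6% of the windows of Rps27 occur in another gene.

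Rpl3, which lies close to the peptidyl transferase centre, changed by -0.51, -0.51 and -0.63 on differentiation in control, MUNC spliced and MUNC genomic cells, each called by limma (adjusted p = 0.00387, 0.00753 and 0.00104). Rps4x, the X-linked small subunit protein, was lower in MUNC spliced DM3 than in control DM3 by a change of -0.76 (limma, adjusted p = 0.00101). Rpl38, known for its part in the translation of Hox mRNAs, changed by -0.81 and -0.71 in MUNC spliced and MUNC genomic DM3 (limma, adjusted p = 0.000275 and 0.000873). Rps27a, made as a fusion with ubiquitin, changed by -0.65 in control DM3 against control GM (limma, adjusted p = 0.00665). Rpl39, a small protein of the exit tunnel, was not called in any of the 9 comparisons of groups.

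Other genes of the ribosome pathway, from lists that do not overlap with the members, are given here beside them, as counts and medians. On differentiation of control cells, 49 of 53 ribosome biogenesis genes fell and none rose (median -1.41), as did 66 of 76 mitochondrial ribosomal protein genes (median -0.76), beside a median of -0.42 for the cytosolic members. Of all genes, 28.6% were called lower there and 29.6% higher. On differentiation of MUNC spliced cells, 21 of the 53 biogenesis genes fell and 1 rose (median -0.50, members -0.53). Of all genes, 18.4% were called lower and 17.2% higher in that comparison. In MUNC spliced GM against control GM, 23 biogenesis genes fell and 1 rose (median -0.46, members -0.50). There 17.3% of all genes were called lower and 18.2% higher. In MUNC spliced DM3 against control DM3, 23 of the 53 biogenesis genes rose and 2 fell (median 0.43), and 12 mitochondrial ribosomal protein genes rose and 8 fell (median 0.12), while 57 cytosolic members fell and none rose. These mitochondrial counts were below the background of 22.3% of all genes higher and 21.0% lower. In MUNC genomic DM3, 4 biogenesis genes rose and 3 fell (median 0.07), and 7 mitochondrial ribosomal protein genes rose and 9 fell (median 0.04), where 19.3% of all genes were called higher and 20.9% lower.

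For the interaction of MUNC spliced with differentiation, 29 of 53 biogenesis genes were called higher and none lower, with a median of 0.97, where the members' median was -0.15 and 7.43% of all genes were called higher. For MUNC genomic limma called none of the 53 in either direction, with 9 at an unadjusted p under 0.05. Of 24 translation factors tested, 15 fell and 2 rose on differentiation of control cells (median -0.71), and 11 fell and 2 rose in MUNC spliced DM3 against control DM3 (median -0.36), beside 28.6% and 21.0% of all genes called lower. Of 8 ribosomal protein genes under other symbols, such as Fau and Rack1, 3 fell and none rose in either MUNC line in DM3. Of all genes, 21.0% were called lower there in MUNC spliced and 20.9% in MUNC genomic cells.

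**Figure D5:**
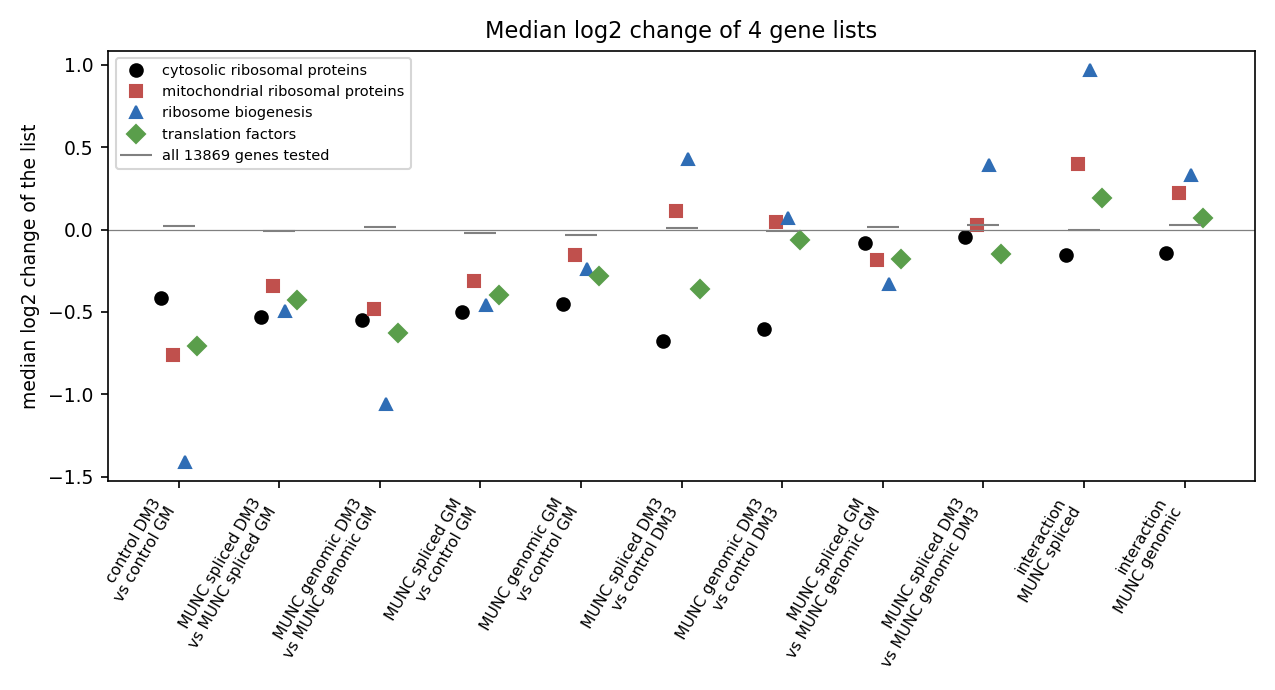
Median log2 change of 4 gene lists and of all 13869 tested genes in 11 comparisons, on the log2(FPM + 1) scale. Black circles are the cytosolic ribosomal protein genes, red squares the mitochondrial ones, blue triangles ribosome biogenesis genes and green diamonds translation factors. In the 2 comparisons of MUNC lines with control in DM3, the circles lie at -0.68 and -0.60 and the triangles at 0.43 and 0.07. In MUNC spliced GM against control GM the circle lies at -0.50 and the triangle at -0.46.

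Of the single genes named from these lists, Myc, which activates ribosome production, was at 99.8, 107 and 139 FPM in control GM and at 40.1, 37.0 and 37.7 FPM in control DM3, a change of -1.55 (limma, adjusted p = 6.6e-05). In MUNC spliced cells it was at 95.0, 51.8 and 117 FPM in GM and at 101, 64.3 and 91.3 FPM in DM3, which overlapped, and in DM3 it was higher than in control cells by a change of 1.12 (limma, adjusted p = 0.00181). Ncl, the nucleolar protein nucleolin, was at 808, 570 and 523 FPM in control DM3 and at 1129, 929 and 938 FPM in MUNC spliced DM3, without overlap. Its change of 0.68 (limma, adjusted p = 0.0238) lost the call without control DM3 replicate 2 (adjusted p = 0.0809), control DM3 replicate 3 (adjusted p = 0.104) or MUNC spliced DM3 replicate 1 (adjusted p = 0.0821). Npm1, also of the biogenesis list, was lower in MUNC spliced DM3 than in control DM3 (-0.62; limma, adjusted p = 0.0236). The change of Fbl there, 0.16, did not pass the test (limma, adjusted p = 0.648). Tpt1, another mRNA with a terminal oligopyrimidine tract, rose on differentiation of control cells (0.39; limma, adjusted p = 0.00525) and fell in MUNC spliced DM3 against control DM3 (-0.89; limma, adjusted p = 5.74e-06). Eef1a2, the muscle form of the elongation factor, did not pass the filter on low values.

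The authors' deposited table for each of 5 comparisons gave the same direction. At an adjusted p under 0.05 the authors' deposited tables listed 44 of 78 members lower in control DM3 against control GM, 37 of 78 in MUNC spliced GM, 24 of 77 in MUNC genomic GM, 58 of 78 in MUNC spliced DM3 and 61 of 78 in MUNC genomic DM3 against control cells. In the authors' deposited tables no member was higher in any of the 5. The share of all genes that the authors' results called is not given here, so these counts are not set against a background.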

How the data were processed

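Poly(A)-enriched RNA of 18 C2C12 libraries in 6 groups was analysed. The authors deposited 1 table of signal values named FPM for all libraries, which by the values are reads per gene divided by a factor of the library and not by gene length. How the authors set that factor is not given in the sources used here. They were whole multiples of 1 read in every library, to within 0.1 read for 100% of values, so reads were recovered from them. The authors also deposited log2 fold changes and p-values (adjusted p-values among them) for 5 comparisons. Per the submitters' processing notes, STAR, HTSeq, DESeq2 and mm10 were used, with no role given. How multi-mapped reads were counted is not given in the sources used here. No column lacked a sample (0).

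Genes that reached 0.5 FPM in 3 or more libraries were tested with limma 3.58.1 (R 4.3.3, trend) on log2(FPM + 1), all 18 libraries in 1 fit with a mean per group. P-values were adjusted by Benjamini-Hochberg over all 13869 genes, and 0.05 was the threshold. Fold changes on this scale understate those of low genes. Alternatives were equal library sums, quantile normalization, a pseudocount of 0.1, no filter, edgeR 4.0.16 (quasi-likelihood) and DESeq2 1.42.0 on recovered reads, a replicate block, and leaving out each library. The fits were tested on simulated data.

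Sequences are from RefSeq (GRCm38.p6), where 57 of 77 tested members matched by symbol. Lengths and shared windows are from GENCODE M21. Shared windows are runs of 50 bases found in another gene's transcript. The members and lists were chosen with earlier results of these data known. Members were named as the largest rises and falls per comparison among called members without overlap, by role, by the highest and lowest level per kilobase, and below the filter, with genes of other lists. Single values of some named genes are not reported here. Depth was 38416702 to 68788327 reads, so 1 read was at most 0.0252 FPM.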

Additional observations from a re-analysis of the deposited data

Results flagged for a closer look

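For 3 of the named genes, the interaction of MUNC spliced with differentiation was called by a test of the difference itself (limma, Benjamini-Hochberg). The same test called 6.94% of all genes lower and 7.43% higher, and 29 of 53 biogenesis genes higher. For Rpl28 the log2 change on differentiation was lower in MUNC spliced than in control cells by an interaction of -0.65 (adjusted p = 0.0316). Over the 25 alternatives it lay between -0.78 and -0.52, with an adjusted p between 0.0102 and 0.0643, and it lost the call in 9. For Myc the interaction was 1.57 (adjusted p = 0.00954), with 1.23 to 1.81 over the alternatives and no call lost. For Ncl it was 1.24 (adjusted p = 0.0193), with 1.05 to 1.42 over the alternatives and the call lost in 3. Groups of 3 libraries are too small for a test of single outlying samples.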

How the results depend on the processing

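In the 7 comparisons of media or of a line with control, the median of the members stayed below 0 under every alternative run, from -0.75 to -0.32. For MUNC spliced against MUNC genomic it changed sign, from -0.19 to 0.06 in GM and from -0.14 to 0.08 in DM3. Counts of called members moved by more than 1.5 times under these settings. For control DM3 against control GM (38) it was 23 with no filter on low values. For MUNC spliced GM against control GM (52) it was 31 with equal sums and 21 with quantile normalization. For MUNC spliced against MUNC genomic it was 6 in GM (5 higher and 1 lower, against 2 lower) and 8 in DM3 (3 higher and 5 lower, against 4 lower) with quantile normalization, and 1 in GM with no filter. The interaction with MUNC spliced (1) gave 0 with no filter and 0 with edgeR, and that with MUNC genomic (0) gave 1 with quantile normalization. The causes were not tested.

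Leaving out single libraries gave ranges of 18 to 47 for control differentiation, 18 to 72 for MUNC spliced differentiation, 32 to 63 for MUNC genomic differentiation, 20 to 54 for MUNC spliced GM against control, 14 to 50 for MUNC genomic GM against control, 43 to 60 and 38 to 56 for the MUNC spliced and MUNC genomic lines in DM3, 1 to 6 and 4 to 7 for MUNC spliced against MUNC genomic in GM and DM3 (in GM 4 higher and none lower without MUNC genomic GM replicate 3, and 3 higher and none lower without MUNC spliced GM replicate 2), 0 to 1 for the interaction with MUNC spliced and 0 for that with MUNC genomic. With 2 libraries left in a group, the spread is taken from all groups. The share of all genes called without a library is not given here, so none of these counts is set against a background.

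The replicate numbers were tested as a block. Of 45 pairs of same-numbered libraries, 36 correlated above 0.1 in their deviations from the group means (median r 0.291, -0.0569 to 0.727), against 9 of 90 differently numbered pairs (median r -0.124). Same-numbered libraries tended to deviate together, though not every pair exceeded 0.1. The main fit does not take this shared part into account. The labels name no shared batch, so the numbers were not treated as pairs, and the fit with a block is given as an alternative. With the replicate block the counts were 46, 70 and 66 for differentiation of control, MUNC spliced and MUNC genomic cells, 62 and 49 in GM and 68 and 62 in DM3 for MUNC spliced and MUNC genomic against control, and 4 (GM) and 11 (DM3) for MUNC spliced against MUNC genomic. Calls over all 13869 genes grew too. Genes called lower went from 3967 to 4431, 2545 to 3424 and 3484 to 4085 for differentiation of the 3 lines in that order. Against control they went from 2399 to 3293 (MUNC spliced) and 2017 to 2875 (MUNC genomic) in GM. In DM3 they went from 2913 to 3636 and from 2903 to 3606.

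Of the named genes' 175 calls, 1148 recomputed values over the alternatives kept the call and 77 lost it, and 2910 and 240 over the single libraries left out, with none reversed.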
